A study of Rattus norvegicus with 30 samples.

Results

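The genes followed here are the enzymes of cholesterol synthesis with their control and transport genes, and the genes of fatty acid synthesis, elongation and desaturation. They were measured in primary cultures of rat inner medullary collecting duct cells, the epithelium at the papillary end of the kidney tubule. Of 36 genes named for the set, 34 were measured among 14506 genes. Each was read from the probe set with exactly 1 gene symbol, taking the one with the highest mean over the arrays where a gene had several. Hmgcs1 had no probe set under its name, and Srebf1 stood only on a probe set that also carried the symbol of Pemt. The 34 comprised 17 enzymes of sterol synthesis, 4 genes of sterol sensing and SREBP control, 3 genes of sterol transport and 10 genes of fatty acid and lipid synthesis.

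Total RNA of 30 samples was hybridised to Affymetrix whole-transcript arrays, with 3 arrays in each of 10 groups. The upward steps were 300 to 600 mosmol/kg, sampled at 3, 12, 24 and 48 h and set against cells kept at 300 mosmol/kg (steady 300), and 600 to 900 mosmol/kg, sampled at 12 and 24 h and set against cells kept at 600 mosmol/kg (steady 600). A single downward step, 900 to 300 mosmol/kg, was sampled at 24 h and set against cells kept at 900 mosmol/kg (steady 900). The treatment field of every sample, controls included, also names 5 µM cyclosporin A, a calcineurin inhibitor, whereas the titles leave it out. By that field the drug was common to all 10 groups, and the titles do not say whether it was. Nothing in the labels says whether the 3 replicates of a group came from separate animals or cultures, and the spread that the p-values rest on may therefore be technical.

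Cholesterol is built from acetyl-CoA through mevalonate, farnesyl diphosphate, squalene and lanosterol. The SREBP transcription factors, held in the endoplasmic reticulum by SCAP and the INSIG proteins while sterols are plentiful, switch the genes of this pathway on together when sterols run low. Fatty acid synthesis shares the acetyl-CoA pool and part of that control, and desaturases and elongases then set the chain length and double bonds of membrane lipids. The inner medulla is the part of the kidney whose cells meet the highest and most variable salt and urea concentrations, and membranes are among the structures such cells must keep intact.

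All values are log2 intensities after RMA, so a difference of 1 is a doubling of signal, and levels of different genes are not comparable. A call is an adjusted p under 0.05 in limma's moderated test, with Benjamini-Hochberg adjustment over all 14506 genes. Changes are given ± SE, and n = 3 arrays in every group. Array medians lay between 5.63 and 5.76, and each of the 30 arrays was closest to an array of its own group. Replicate 3 of the 3 h group and replicate 9 of the 600 to 900 group at 12 h stood apart: their median distances from the other arrays of their groups were 0.198 to 0.205 and 0.194 to 0.200, against 0.122 and 0.0971 between the other arrays. The medium was visible in the osmolyte genes: Akr1b1, the sorbitol-forming aldose reductase, averaged 10.93, 12.67 and 13.26 at steady 300, 600 and 900. Of the collecting duct markers, those of principal cells were higher at steady 600 and 900 than at steady 300, and those of intercalated cells were lower. Principal cell markers (11 of 11 measured) averaged 5.94, 8.53 and 9.56 at steady 300, 600 and 900. Of these, 5, 9 and 9 lay above the array median. Aqp2, the vasopressin-regulated water channel of principal cells, averaged 5.61 at steady 300, below the lowest array median, 10.07 at steady 600 and 12.04 at steady 900, and the sodium channel subunits Scnn1b and Scnn1g lay between 4.57 and 5.05 in all 10 groups. Leukocyte markers (12 of 12 measured) averaged 8.52, 7.22 and 6.76 at steady 300, 600 and 900, fibroblast markers (11 of 11) 9.17, 8.67 and 7.13, and epithelial markers (5 of 5) 11.32, 11.35 and 11.28. Intercalated cell markers (5 of 5) averaged 5.44, 4.66 and 4.59 in the same media, with 1, 0 and 0 above the array median. Loop and proximal tubule markers (8 of 8) averaged 5.24, 6.26 and 6.55, and endothelial markers (6 of 7) 7.24, 7.53 and 7.58. Fewer cells of a type and less RNA per cell cannot be told apart in such bulk samples.

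**Figure D1:**
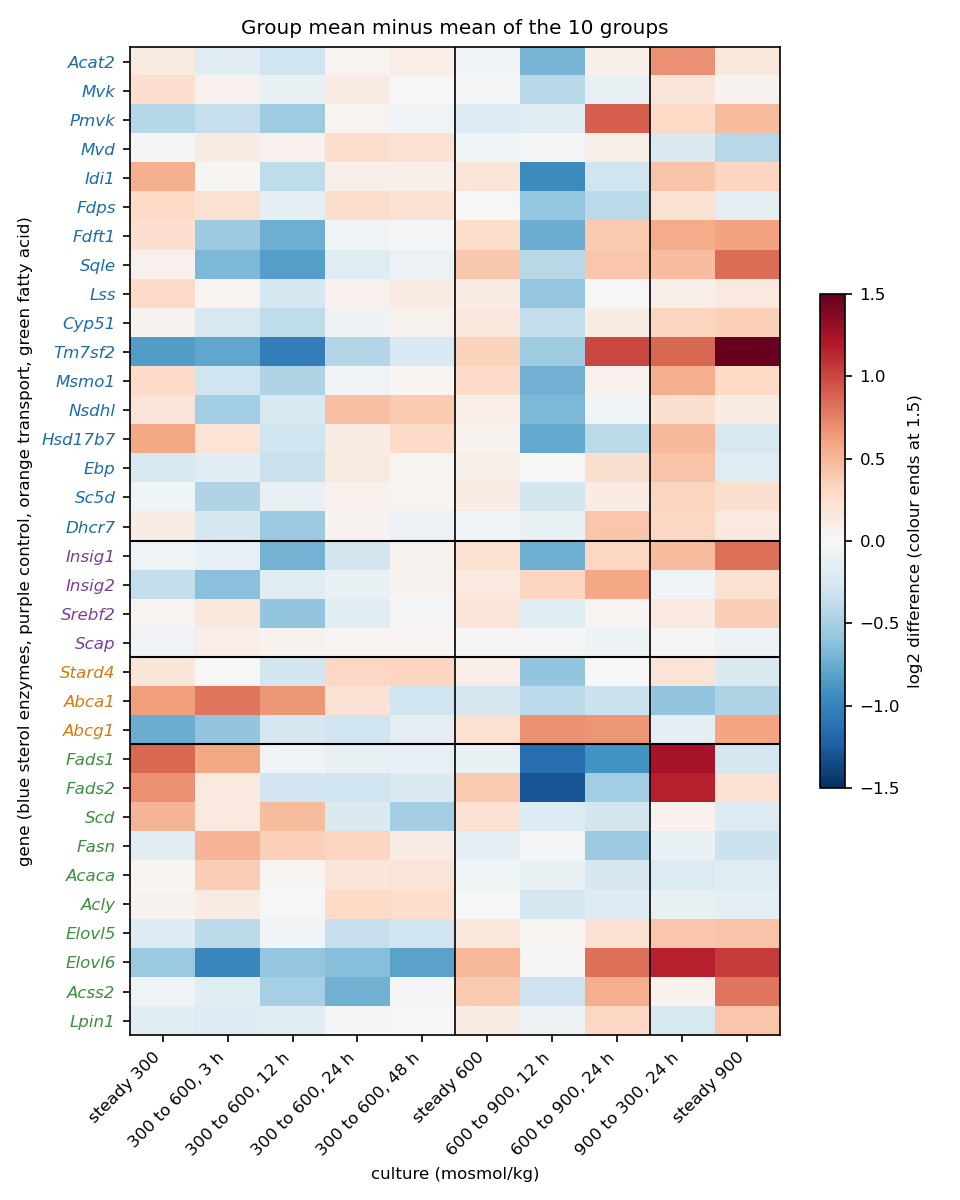
Mean log2 level of each of the 34 genes in each of the 10 groups, minus the mean of that gene's 10 group means. Rows are genes by branch and columns are groups, with lines between the media series. Most sterol enzymes are blue at 12 h of both upward steps, while the fatty acid rows follow several patterns.

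Promoters are shown because 12 and 13 of the 17 sterol enzymes were called lower at 12 h of the upward steps, as described after them. RefSeq promoters on build GRCr8, from 250 bases before to 50 bases after each start, were matched for 26 of the 34 measured genes. Those without a match were Abcg1, Acaca, Elovl6, Fasn, Fdft1, Pmvk, Sqle and Stard4. The 4 printed come from the sterol enzymes, the control genes and the fatty acid genes, with none from sterol transport. These are Msmo1 (a sterol demethylation enzyme with one of the most typical profiles), Tm7sf2 (the sterol enzyme with the largest range), Insig1 (the feedback gene) and Fads2 (the fatty acid gene with the largest fall). They lie at chr16:29746863-29747162 on the plus strand, and at chr1:212789492-212789791, chr4:8057720-8058019 and chr1:216171984-216172283 on the minus strand. Each is written 5′ to 3′ along its gene, and capitals mark matches on either strand to CCAAT, bound by NF-Y, to GGGCGG, bound by Sp1, and to CACGTG, an E-box.
Msmo1: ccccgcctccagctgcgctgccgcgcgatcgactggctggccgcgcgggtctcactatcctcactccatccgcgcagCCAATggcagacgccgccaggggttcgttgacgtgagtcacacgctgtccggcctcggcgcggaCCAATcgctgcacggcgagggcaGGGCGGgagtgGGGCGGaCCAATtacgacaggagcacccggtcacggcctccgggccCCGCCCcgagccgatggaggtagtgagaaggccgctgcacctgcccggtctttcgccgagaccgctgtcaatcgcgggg
Tm7sf2: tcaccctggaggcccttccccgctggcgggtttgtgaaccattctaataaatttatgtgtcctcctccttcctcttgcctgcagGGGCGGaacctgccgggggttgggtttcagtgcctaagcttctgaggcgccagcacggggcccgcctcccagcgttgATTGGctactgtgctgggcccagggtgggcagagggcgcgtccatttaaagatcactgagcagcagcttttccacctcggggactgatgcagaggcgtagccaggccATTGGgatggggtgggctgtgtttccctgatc
Insig1: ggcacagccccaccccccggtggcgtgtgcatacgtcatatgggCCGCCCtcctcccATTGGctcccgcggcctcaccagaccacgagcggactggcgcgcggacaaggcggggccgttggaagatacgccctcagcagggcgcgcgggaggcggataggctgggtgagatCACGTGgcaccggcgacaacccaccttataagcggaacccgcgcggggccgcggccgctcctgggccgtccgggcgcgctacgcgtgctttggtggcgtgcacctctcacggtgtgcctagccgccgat
Fads2: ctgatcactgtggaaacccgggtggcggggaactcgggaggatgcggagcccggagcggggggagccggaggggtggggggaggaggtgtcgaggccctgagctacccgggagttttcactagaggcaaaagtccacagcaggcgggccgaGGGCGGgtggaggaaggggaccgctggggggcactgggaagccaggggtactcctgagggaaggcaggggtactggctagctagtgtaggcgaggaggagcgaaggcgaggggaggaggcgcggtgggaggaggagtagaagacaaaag
The Msmo1 promoter held 3 CCAAT matches, 173, 109 and 68 bases before the start, and 3 GGGCGG matches. In Insig1, CCAAT lay 193 and CACGTG 79 bases before the start, and Fads2 held GGGCGG but no CCAAT in this window. CCAAT was present in 11 of 14 sterol enzyme promoters (78.6%) and 19 of 26 promoters of the whole set (73.1%), against 38.2% of 12518 promoters of genes on the array. GGGCGG was present in 85.7% of the sterol enzyme promoters and 57.1% of the fatty acid gene promoters, against 50.1% of the array's promoters. CACGTG was present in 5 of 26 promoters of the set (19.2%), against 7.76% of the array's. Among the sterol enzymes it was present in 1 of 14 promoters (7.14%), near the array's share. TGGAAA, the core of the tonicity element, is not capitalised above. It was present in 19.2% of the set's promoters, against 19.5% of the array's. The sterol regulatory element TCACNCCAC, searched on both strands, matched 0 of 26 promoters, against 1.06% of the array's, which says only that these letters are not in these windows.

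At 12 h after the step from 300 to 600 mosmol/kg, sterol synthesis enzymes were lower along most of the pathway, from Acat2, the thiolase at its start, to Dhcr7, the reductase at its end. Of 17 enzymes, 12 were called lower and 0 higher at 12 h, where 22.6% of all genes were called lower and 11.9% higher. Their median change was -0.44, against -0.01 over all genes. Squalene synthase (Fdft1), isopentenyl diphosphate isomerase (Idi1), squalene epoxidase (Sqle) and Hsd17b7, a ketoreductase of sterol demethylation, fell the most among the enzymes at that time.

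Fdft1 read 9.62, 9.57 and 9.59 at steady 300, 8.80, 8.75 and 8.84 at 3 h, 8.56, 8.64 and 8.61 at 12 h, 9.29, 9.39 and 9.23 at 24 h, and 9.31, 9.33 and 9.31 at 48 h. Every challenged array lay below the steady 300 arrays, with the lowest at 12 h. The change was -0.80 ± 0.09 at 3 h (adjusted p = 4.91e-08), -0.99 ± 0.09 at 12 h (adjusted p = 4.81e-10) and -0.28 ± 0.09 at 48 h (adjusted p = 0.0227), the last lost in 5 of 15 alternative analyses. Idi1, which makes the allylic building block of farnesyl diphosphate, read 9.45, 9.51 and 9.48 at steady 300, 8.79, 8.94 and 9.15 at 3 h, 8.58, 8.46 and 8.65 at 12 h, 9.04, 8.90 and 9.12 at 24 h, and 9.05, 9.08 and 8.92 at 48 h. It fell by 0.91 ± 0.13 at 12 h (adjusted p = 1.59e-06), a 1.88-fold lower signal, and was still 0.46 ± 0.13 below steady 300 at 48 h (change -0.46, adjusted p = 0.00901). Sqle read 8.56, 8.45 and 8.64 at 12 h, against 9.40, 9.49 and 9.44 at steady 300, a change of -0.89 ± 0.09 (adjusted p = 5.3e-09). Hsd17b7 read 7.41, 7.20 and 7.35 at 12 h, against 8.12, 8.31 and 8.16 at steady 300, a change of -0.87 ± 0.08 (adjusted p = 1.86e-09). In both, all 3 arrays at 12 h lay below all 3 at steady 300.

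The other enzymes called lower at 12 h were Msmo1 (-0.74 ± 0.10), Dhcr7 (-0.66 ± 0.07), lanosterol synthase Lss (-0.56 ± 0.07), Acat2 (-0.44 ± 0.08), lanosterol demethylase Cyp51 (-0.44 ± 0.08), farnesyl diphosphate synthase Fdps (-0.43 ± 0.10), the sterol dehydrogenase Nsdhl (-0.42 ± 0.11) and mevalonate kinase Mvk (-0.35 ± 0.06). The enzymes not called at 12 h were phosphomevalonate kinase Pmvk (-0.11 ± 0.13), diphosphomevalonate decarboxylase Mvd (0.07 ± 0.11), the sterol reductase Tm7sf2 (-0.19 ± 0.08), the sterol isomerase Ebp (-0.11 ± 0.11) and the sterol desaturase Sc5d (-0.05 ± 0.06). The mevalonate arm thus split, with Mvk lower and both enzymes after it not called. Across the alternative analyses, 12 or 13 of the 17 enzymes were called lower at 12 h. The epithelial markers averaged 10.90 at 12 h, against 11.32 at steady 300, and the leukocyte markers 8.56 at 12 h, against 8.52 at steady 300, and their part in the fall was not tested.

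At 3 h, 12 enzymes were also called lower and 0 higher, but here 29.5% of all genes were called lower and 12.1% higher. The median change of the enzymes was -0.30, against -0.04 over all genes. The set is bright: 14 of the 17 enzymes lay in the brightest tercile of genes, and of that tercile 52.1% were called lower at 3 h with a median change of -0.23. Under quantile normalization the enzymes' median at 3 h was -0.13 with 8 lower and 1 higher, and under cyclic loess it was -0.09 with 8 lower and 2 higher. At 12 h, 32.7% of the brightest tercile were called lower, with a median of -0.08. Of all genes called at 3 h, 70.9% were lower, against 58.3% under quantile normalization and 59.1% under cyclic loess. Without replicate 3 of that group, 12 enzymes were again called lower at 3 h. Nsdhl had its lowest mean of the 4 times at 3 h, with 8.88, 8.95 and 9.32 at 3 h, against 9.72, 9.79 and 9.76 at steady 300, a change of -0.71 ± 0.11 (adjusted p = 7.2e-06). Sc5d, the lathosterol desaturase, fell by 0.39 ± 0.06 at 3 h (adjusted p = 2.1e-05) and was not called at 12 h. Calls for Acat2, Cyp51, Lss and Mvk at 3 h were lost in 2 to 5 of 15 alternative analyses.

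Most enzymes then rose again. At 24 h against 12 h after the step, 16 of 17 enzymes were called higher and 0 lower, where 17.5% of all genes were called higher and 9.51% lower, and 27.9% of the brightest tercile were called higher. The median change between these times was 0.41. Fdft1 (0.70 ± 0.09), Nsdhl (0.69 ± 0.11), Sqle (0.65 ± 0.09) and Dhcr7 (0.60 ± 0.07) rose the most of the enzymes, with Tm7sf2 also at 0.60 ± 0.08. At 48 h against 24 h, 0 of 17 enzymes were called, where 2.79% of all genes were called, and 2 of the 17 had an unadjusted p under 0.05 in limma's test. Against steady 300, 6 enzymes were called lower and 3 higher at 24 h (13.0% and 9.40% of all genes), and 5 lower and 2 higher at 48 h (12.0% and 9.57% of all genes). These late counts were less firm: across the alternative analyses 3 to 7 enzymes were lower and 3 to 6 higher at 24 h, the 3 lower without replicate 3 of the 24 h group, and 3 to 8 were lower and 1 to 5 higher at 48 h. Those higher were Pmvk, Tm7sf2 and, at 24 h alone, Ebp. Tm7sf2 read 7.40, 7.27 and 7.30 at steady 300, 7.80, 7.70 and 7.68 at 24 h, and 7.96, 7.90 and 7.94 at 48 h, a change of 0.61 ± 0.08 at 48 h (adjusted p = 1.81e-06). Pmvk read 7.84, 7.65 and 7.82 at 24 h, against 7.29, 7.40 and 7.21 at steady 300, a change of 0.47 ± 0.13 (adjusted p = 0.0102). The 4 times share the steady 300 arrays, so their changes are not independent of each other.

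**Figure D2:**
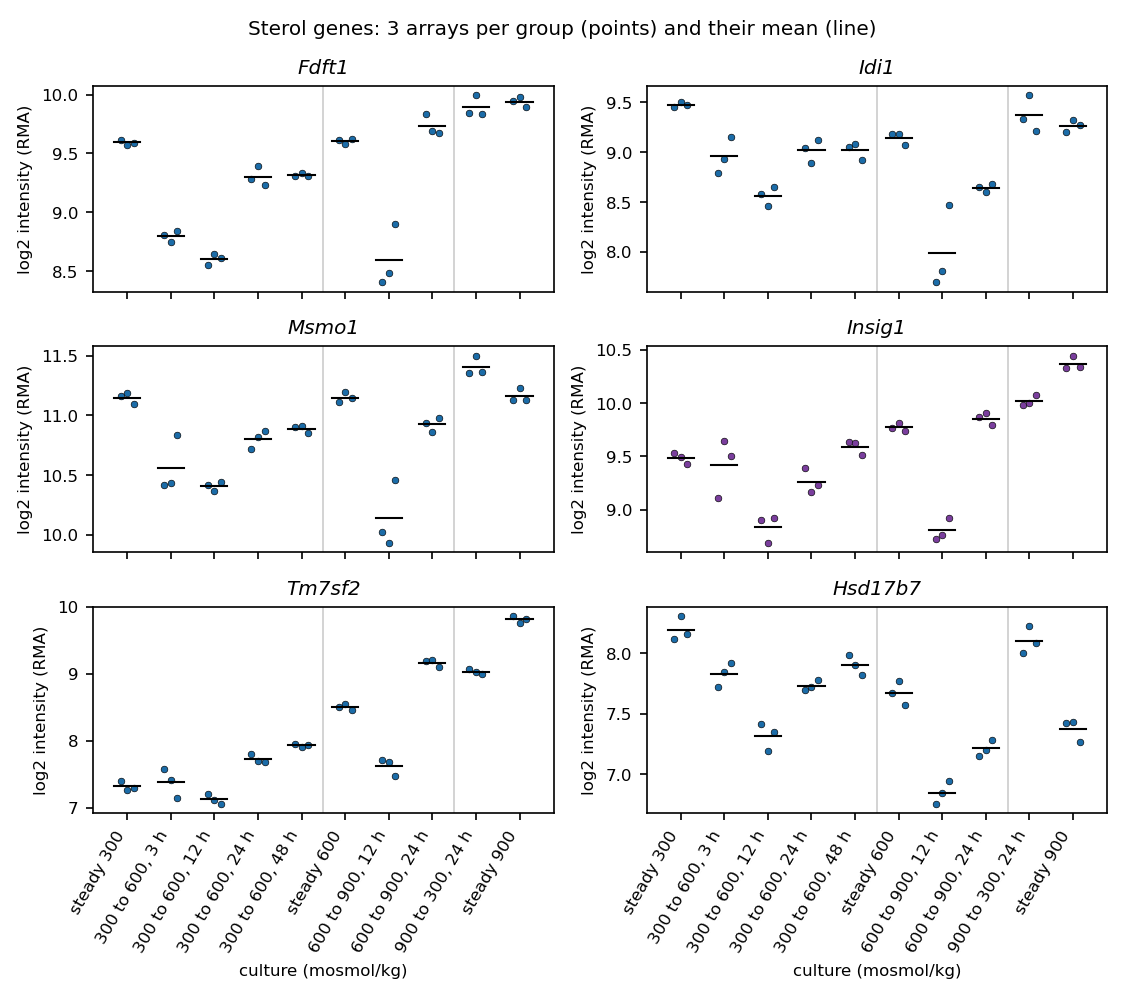
Log2 intensity of 5 sterol enzymes and Insig1 on each array (points) with the mean of the 3 arrays (line), by group. Fdft1, Idi1, Msmo1 and Insig1 are low at 12 h of both upward steps, while Tm7sf2 is higher the higher the steady medium.

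Among the control genes, Insig1 and Srebf2 were lower at 12 h together with the enzymes, and Scap was not called. Of 4 measured, 2 were called lower and 0 higher at 12 h, where 22.6% of all genes were called lower and 11.9% higher. Of the brightest tercile of genes, 32.7% were called lower. Insig1, an endoplasmic reticulum protein that holds the SREBP escort back and is itself an SREBP target, read 9.53, 9.50 and 9.43 at steady 300, 9.11, 9.64 and 9.50 at 3 h, 8.90, 8.69 and 8.92 at 12 h, 9.40, 9.16 and 9.23 at 24 h, and 9.63, 9.62 and 9.51 at 48 h. It fell by 0.65 ± 0.10 at 12 h (adjusted p = 3.85e-06), and at 3 h (-0.07 ± 0.10), 24 h (-0.23 ± 0.10) and 48 h (0.10 ± 0.10) it was not called. Srebf2, the SREBP that mainly drives sterol genes, read 8.55, 8.71 and 8.62 at 12 h, against 9.26, 9.25 and 9.26 at steady 300, a change of -0.63 ± 0.09 (adjusted p = 3e-06). Neither gene's arrays at 12 h overlapped those at steady 300. Insig2, a relative of Insig1, rose by 0.40 ± 0.10 at 48 h (adjusted p = 0.00323). Scap, the escort protein of the SREBPs, ranged over 0.19 of a log2 unit between group means and was the only gene of the 34 not called in limma's moderated F test over the 10 groups (adjusted p = 0.76), where 73.7% of all genes were called.

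The fatty acid branch did not move as a block after the step to 600 mosmol/kg. Of 10 genes, 2 were called higher and 4 lower at 3 h (12.1% and 29.5% of all genes), and 1 higher and 3 lower at 12 h (11.9% and 22.6% of all genes). At 24 h, 2 were higher and 4 lower (9.40% and 13.0% of all genes), and at 48 h, 1 was higher and 3 lower (9.57% and 12.0% of all genes). The counts at 3 and 12 h were thus near the share of all genes, and the medians lay between -0.15 and -0.03. The desaturases Fads1 and Fads2, which introduce double bonds into polyunsaturated fatty acids, fell and stayed low, while fatty acid synthase (Fasn) rose.

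Fads2 read 8.79, 8.76 and 8.66 at steady 300, 8.10, 8.15 and 8.36 at 3 h, 7.90, 7.63 and 7.78 at 12 h, 7.80, 7.78 and 7.67 at 24 h, and 7.81, 7.91 and 7.80 at 48 h. Its change was -0.97 ± 0.08 at 12 h (adjusted p = 1.26e-10) and at 48 h it was -0.90 ± 0.08 (adjusted p = 6.85e-10), with no overlap between groups at any of the 4 times. Fads1 read 8.20, 8.09 and 8.04 at steady 300, 7.22, 7.11 and 7.28 at 12 h, and 7.14, 7.28 and 6.94 at 48 h. Its changes were -0.91 ± 0.11 at 12 h (adjusted p = 7.42e-08) and -0.99 ± 0.11 at 48 h (adjusted p = 1.91e-08). Neither desaturase was called at 24 h against 12 h, with -0.07 ± 0.11 for Fads1 and -0.02 ± 0.08 for Fads2. Fads1 at 3 h (-0.28 ± 0.11) overlapped steady 300, and its call was lost in 7 of 15 alternative analyses.

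Fasn, which builds palmitate, read 8.50, 8.50 and 8.49 at steady 300, 9.01, 9.03 and 9.45 at 3 h, 8.99, 9.10 and 8.96 at 12 h, 8.94, 9.04 and 8.96 at 24 h, and 8.67, 8.65 and 8.99 at 48 h. It rose by 0.67 ± 0.11 at 3 h (adjusted p = 2.24e-05), by 0.52 ± 0.11 at 12 h (adjusted p = 0.000482) and by 0.48 ± 0.11 at 24 h (adjusted p = 0.00153), and at 48 h (0.27 ± 0.11) it was not called. Scd, the desaturase that makes oleate, was 6.04, 6.07 and 5.87 at 24 h and 5.68, 5.77 and 5.67 at 48 h, against 6.79, 6.52 and 6.86 at steady 300. Its change was -0.36 ± 0.10 at 3 h (adjusted p = 0.00458), and at 12 h (-0.03 ± 0.10) it was not called. At 48 h the change was -1.02 ± 0.10 (adjusted p = 3.6e-09). The 48 h mean of Scd, 5.71, lay within the range of the array medians, 5.63 to 5.76. Acss2, which makes acetyl-CoA from acetate, read 6.70, 6.55 and 6.43 at 24 h, against 7.26, 7.18 and 7.19 at steady 300, a change of -0.65 ± 0.09 (adjusted p = 7.11e-07), and its 48 h arrays of 7.29, 7.07 and 7.40 again overlapped steady 300. ATP citrate lyase (Acly) rose by 0.24 ± 0.07 at 24 h (adjusted p = 0.00869). Elovl6, which elongates palmitate, fell by 0.42 ± 0.10 at 3 h (adjusted p = 0.00117) and was not called later. Acetyl-CoA carboxylase (Acaca), which makes malonyl-CoA, changed by 0.33 ± 0.11 at 3 h (adjusted p = 0.0158), a call lost in 4 of 15 alternatives, and was not called at 12, 24 or 48 h.

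**Figure D3:**
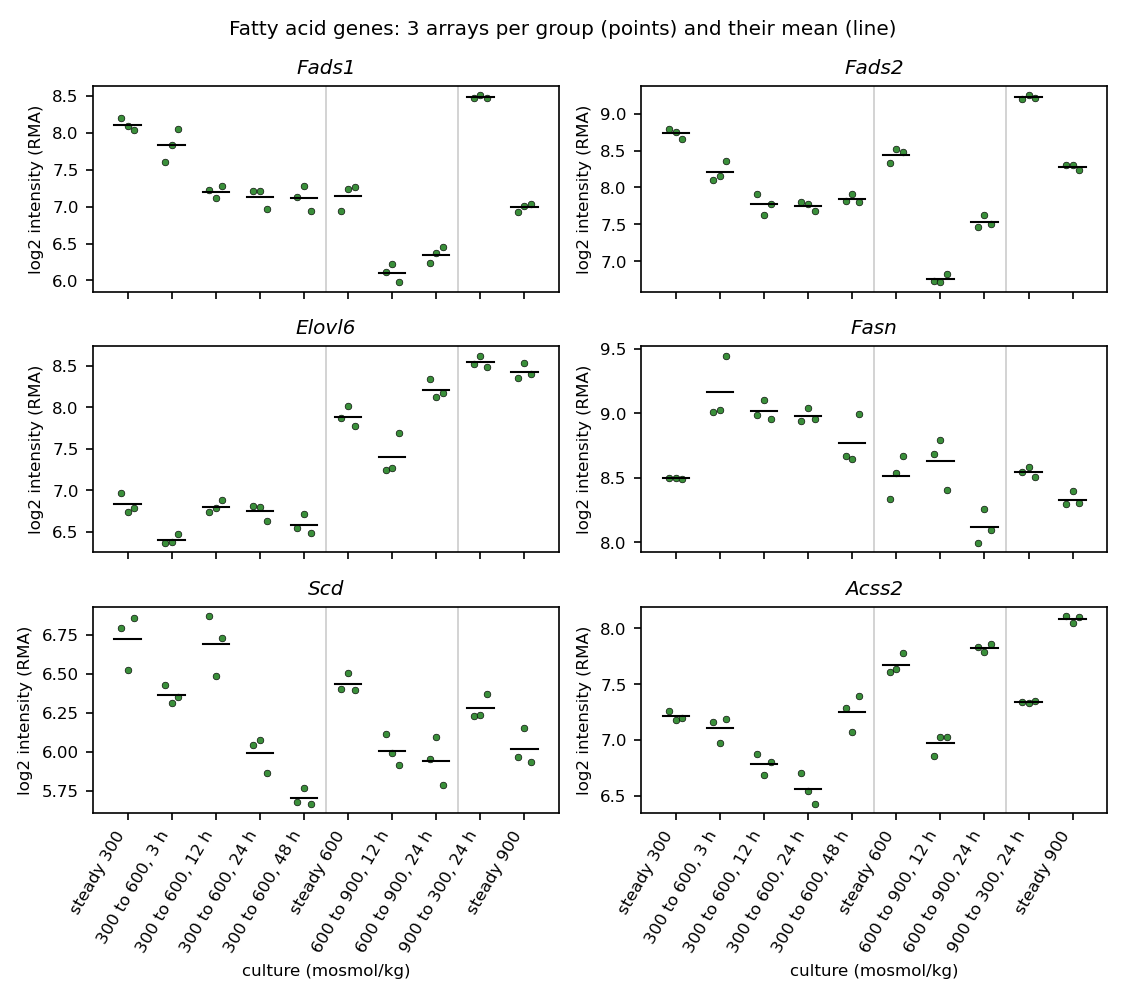
Log2 intensity of 6 fatty acid genes on each array (points) with the mean of the 3 arrays (line), by group. Fads1 and Fads2 are low after both upward steps and highest after the return from 900 to 300 mosmol/kg, Elovl6 is high wherever cells were grown at 600 or 900 mosmol/kg, and Fasn, Scd and Acss2 each follow another course.

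The step from 600 to 900 mosmol/kg again lowered the sterol enzymes at 12 h. Of 17 enzymes, 13 were called lower and 0 higher against steady 600, where 25.3% of all genes were called lower and 12.5% higher, and 41.2% of the brightest tercile were called lower. Their median change was -0.65, against -0.03 over all genes and -0.15 over the brightest tercile. In every alternative analysis run, 13 enzymes were called lower. Of all genes called in this comparison, 67.0% were lower, against 54.3% under quantile normalization, 55.1% under median centring and 55.8% under cyclic loess. Idi1 read 7.69, 7.81 and 8.47 in the challenged cells, against 9.18, 9.19 and 9.07 at steady 600, a change of -1.15 ± 0.13 (adjusted p = 2.25e-08), or a 2.22-fold lower signal. Msmo1, the methylsterol oxidase, read 10.02, 9.93 and 10.46 in the challenged cells, against 11.11, 11.20 and 11.14 at steady 600, a change of -1.01 ± 0.10 (adjusted p = 4.82e-09). Fdft1 read 8.41, 8.49 and 8.91 in the challenged cells, against 9.62, 9.58 and 9.63 at steady 600, a change of -1.01 ± 0.09 (adjusted p = 2.34e-10). In all 3 genes the last value given, from replicate 9, was the least low, and it still lay below every steady 600 array. Tm7sf2 read 7.72, 7.68 and 7.47 in the challenged cells, against 8.51, 8.54 and 8.45 at steady 600, a change of -0.87 ± 0.08 (adjusted p = 1.61e-09). The epithelial markers averaged 10.92 in the challenged cells, against 11.35 at steady 600, and the leukocyte markers 6.11 in the challenged cells, against 7.22 at steady 600, and their part was not tested here either.

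Of the 4 control genes, Insig1 and Srebf2 were called lower again and 0 were higher (25.3% and 12.5% of all genes). Of the brightest tercile of genes, 41.2% were called lower. Insig1 read 8.73, 8.77 and 8.92 at 12 h, against 9.76, 9.82 and 9.74 at steady 600, a change of -0.97 ± 0.10 (adjusted p = 3.26e-09). A further Insig1 probe set, not used in the counts, averaged 8.20 at 12 h and 9.46 at steady 600. Srebf2 fell by 0.38 ± 0.09 (adjusted p = 0.00137). Counting both upward steps, 11 of 17 enzymes were called lower at 12 h of each, as were Insig1, Srebf2, Stard4, Fads1, Fads2 and Acss2. Over all genes, 15.8% were called lower at 12 h of both steps, which use separate control arrays. Dhcr7 was called lower in the 300 to 600 step alone, and Tm7sf2 and Sc5d in the 600 to 900 step alone.

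By 24 h at 900 mosmol/kg most enzymes had risen again. Against 12 h, 14 of 17 were called higher and 0 lower, where 21.0% of all genes were called higher and 11.5% lower, and 34.5% of the brightest tercile higher, with a median change of 0.58. Of all genes called between these times, 35.3% were lower, against 46.6% under quantile normalization. Tm7sf2 (1.54 ± 0.08), Fdft1 (1.13 ± 0.09) and Pmvk (1.07 ± 0.13) rose the most. Against steady 600, 3 enzymes were called higher and 3 lower at 24 h (11.2% and 14.7% of all genes). Of all genes called there, 56.7% were lower, against 46.0% under median centring. Pmvk read 8.55, 8.67 and 8.65 at 24 h, against 7.54, 7.61 and 7.48 at steady 600, a change of 1.08 ± 0.13 (adjusted p = 2.33e-07). Tm7sf2 (0.67 ± 0.08) and Dhcr7 (0.45 ± 0.07) were the others higher, and Idi1 (-0.50 ± 0.13), Hsd17b7 (-0.45 ± 0.08) and Fdps (-0.41 ± 0.10) were lower. In each of these genes the arrays at 24 h lay apart from those at steady 600.

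Of the 10 fatty acid genes, 0 were called higher and 6 lower at 12 h of the 600 to 900 step, where 12.5% of all genes were called higher and 25.3% lower. Fads2 had the largest fall of the 34 genes in this comparison, with 6.74, 6.71 and 6.83 in the challenged cells, against 8.33, 8.52 and 8.48 at steady 600. The change was -1.69 ± 0.08 (adjusted p = 6.6e-16), a 3.22-fold lower signal. Over the 10 group means, the r of Fads2 with the epithelial markers was 0.82, and their part in its fall was not tested. Fads1 read 6.12, 6.22 and 5.97 in the challenged cells, against 6.94, 7.23 and 7.26 at steady 600, a change of -1.04 ± 0.11 (adjusted p = 4.08e-09). Acss2 read 6.85, 7.03 and 7.02 in the challenged cells, against 7.61, 7.63 and 7.78 at steady 600, a change of -0.71 ± 0.09 (adjusted p = 9.96e-08). Elovl6 (-0.48 ± 0.10), Scd (-0.43 ± 0.10) and Acly (-0.28 ± 0.07) were also lower, and Fasn (0.11 ± 0.11) was not called. At 24 h, 1 gene was called higher and 5 lower (11.2% and 14.7% of all genes). Fads2 (-0.92 ± 0.08) and Fads1 (-0.79 ± 0.11) were still lower, Fasn fell by 0.40 ± 0.11 (adjusted p = 0.00763), and the call of Elovl6 (0.33 ± 0.10) was lost in 3 of 15 alternatives.

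The change after one step minus the change after the other was tested gene by gene, since the steps use different control groups. At 12 h, 5 of the 34 genes differed between the steps (13.4% of all genes). Tm7sf2 fell after the 600 to 900 step (-0.87), against a change of -0.19 after the 300 to 600 step, a difference of -0.68 ± 0.12 (adjusted p = 0.000146). Fads2 fell further in the 600 to 900 step, by a difference of -0.72 ± 0.11 (adjusted p = 3.46e-05). Dhcr7 fell after the 300 to 600 step alone, giving a difference of 0.59 ± 0.10 (adjusted p = 8.45e-05). At 24 h, 6 genes differed (12.9% of all genes). The change of Fasn was -0.40 after the 600 to 900 step and 0.48 after the 300 to 600 step, a difference of -0.88 ± 0.16 (adjusted p = 0.000189), and Acly differed in the same direction (-0.44 ± 0.10, adjusted p = 0.00183). That of Acss2 was 0.15 after the 600 to 900 step and -0.65 after the 300 to 600 step, a difference of 0.81 ± 0.12 (adjusted p = 1.76e-05). Fdft1, Idi1, Msmo1 and Insig1 did not differ beyond the test's threshold at 12 h, with differences of -0.02 ± 0.12, -0.24 ± 0.18, -0.27 ± 0.15 and -0.32 ± 0.14. Without replicate 9 of the 600 to 900 group at 12 h, 9 genes differed at 12 h. Of all genes that differed at 12 h, 54.0% were lower in the 600 to 900 step, against 43.9% under quantile normalization, 37.5% under median centring and 39.4% under cyclic loess.

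**Figure D4:**
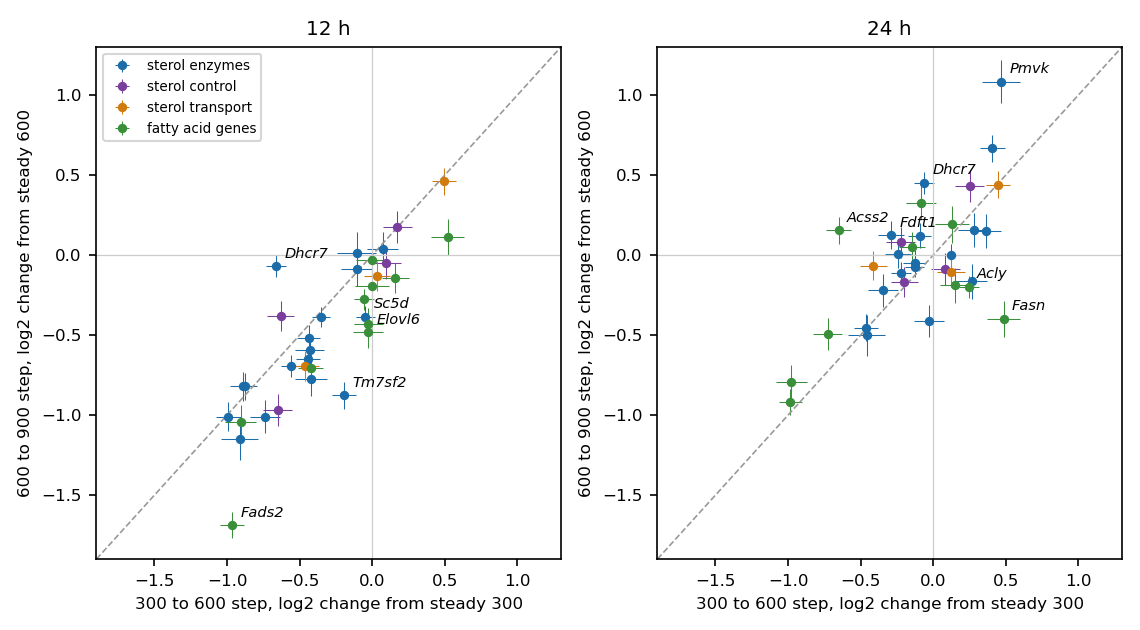
Change of each gene in the 600 to 900 step (vertical axis, log2, against steady 600) against its change in the 300 to 600 step (horizontal axis, log2, against steady 300), at 12 h and 24 h. Points are genes, bars are SE, the dashed line marks equal change, and names mark the genes whose changes differed in the test, such as Fads2 at 12 h and Fasn at 24 h.

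In cells kept at each medium, no drop of the sterol enzymes as a group was seen. At steady 900 against steady 300, 6 enzymes were called higher and 4 lower (20.2% and 22.3% of all genes), with a median change of 0.02. At steady 600 against steady 300, 4 were higher and 3 lower (13.7% and 13.4% of all genes), and at steady 900 against steady 600, 4 were higher and 2 lower (11.3% and 12.9% of all genes). That last count ran over 4 to 8 higher and 0 to 3 lower across the alternative analyses, the 0 without replicate 2 of steady 600. Without replicate 1 of steady 600, 2 enzymes were higher and 2 lower at steady 600 against steady 300, and 11 genes of the whole set were called in place of 17 (27.1% of all genes with every array). Tm7sf2, a sterol reductase, read 7.40, 7.27 and 7.30 at steady 300, 8.51, 8.54 and 8.45 at steady 600, and 9.86, 9.77 and 9.83 at steady 900. Each medium was separate from the next, and at steady 900 it was 2.50 ± 0.08 higher than at steady 300 (adjusted p = 2.74e-20), a 5.65-fold higher signal. The principal cell markers, 11 of 11 measured, averaged 5.94, 8.53 and 9.56 in the same media, with 5, 9 and 9 of them above the array median. Over the 10 group means, the r of Tm7sf2 was 0.85 (rho = 0.84) with these markers and -0.82 (rho = -0.87) with the fibroblast markers. With the loop and proximal tubule markers r was 0.79, and with the endothelial markers 0.77. The likeness was thus not particular to principal cells, and the part of these cell types was not tested. Sqle read 10.21, 10.28 and 10.15 at steady 900, against 9.40, 9.49 and 9.44 at steady 300, a change of 0.77 ± 0.09 (adjusted p = 2.33e-08). Pmvk read 8.21, 8.19 and 8.23 at steady 900, against 7.29, 7.40 and 7.21 at steady 300, a change of 0.91 ± 0.13 (adjusted p = 1.43e-06). Hsd17b7 went down, with 7.42, 7.43 and 7.27 at steady 900, against 8.12, 8.31 and 8.16 at steady 300, a change of -0.82 ± 0.08 (adjusted p = 1.64e-09). Mvd (-0.40 ± 0.11) and Fdps (-0.43 ± 0.10) were also lower at steady 900 than at steady 300. At steady 600 against steady 300, Tm7sf2 (1.18 ± 0.08), Hsd17b7 (-0.53 ± 0.08) and Sqle (0.34 ± 0.09) were called, with Ebp (0.31 ± 0.11), a call lost in 7 of 15 alternatives. At steady 900 against steady 600, Tm7sf2 (1.32 ± 0.08), Pmvk (0.67 ± 0.13) and Sqle (0.43 ± 0.09) were higher, and Mvd (-0.35 ± 0.11) was lower with a call lost in 4 of 15 alternatives.

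Insig1 rose with the medium, with 9.53, 9.50 and 9.43 at steady 300, 9.76, 9.82 and 9.74 at steady 600, and 10.33, 10.45 and 10.34 at steady 900. It was 0.89 ± 0.10 higher at steady 900 than at steady 300 (adjusted p = 7.3e-09), and its call at steady 600 (0.29 ± 0.10) was lost in 4 of 15 alternatives. Insig2 rose by 0.50 ± 0.10 at steady 600 (adjusted p = 0.000218) and by 0.58 ± 0.10 at steady 900 (adjusted p = 1.47e-05), both against steady 300. Srebf2 rose by 0.33 ± 0.09 at steady 900 against steady 300 (adjusted p = 0.00394).

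At steady 900 against steady 300, 4 fatty acid genes were called higher and 4 lower (20.2% and 22.3% of all genes), and at steady 600 against steady 300, 3 were higher and 3 lower (13.7% and 13.4% of all genes). Elovl6 read 6.96, 6.74 and 6.78 at steady 300, 7.87, 8.01 and 7.77 at steady 600, and 8.35, 8.53 and 8.41 at steady 900. It was 1.60 ± 0.10 higher at steady 900 than at steady 300 (adjusted p = 5.17e-14), a 3.03-fold higher signal. Over the 10 group means its r was 0.87 (rho = 0.65) with the principal cell markers and -0.83 (rho = -0.72) with the intercalated cell markers. It was also -0.76 with the leukocyte markers, -0.75 with the fibroblast markers and 0.72 with the endothelial markers. The part of these cell types was not tested. Acss2 rose in the same order, with 7.26, 7.18 and 7.19 at steady 300, 7.61, 7.63 and 7.78 at steady 600, and 8.11, 8.05 and 8.10 at steady 900, a change of 0.88 ± 0.09 at 900 (adjusted p = 7.41e-10). Elovl5, an elongase of polyunsaturated fatty acids, was 0.62 ± 0.09 higher and Lpin1, a phosphatidate phosphatase, 0.57 ± 0.12 higher at steady 900 than at steady 300. At steady 300 Lpin1 averaged 5.85, near the array medians of 5.63 to 5.76. Fads1 read 8.20, 8.09 and 8.04 at steady 300, 6.94, 7.23 and 7.26 at steady 600, and 6.93, 7.01 and 7.04 at steady 900. Its change from steady 300 was -0.96 ± 0.11 at steady 600 (adjusted p = 1.76e-08) and -1.12 ± 0.11 at steady 900 (adjusted p = 3.82e-10). Scd read 5.97, 6.15 and 5.94 at steady 900, against 6.79, 6.52 and 6.86 at steady 300, a change of -0.70 ± 0.10 (adjusted p = 7.03e-07). Fads2 changed by -0.46 ± 0.08 at steady 900 against steady 300 (adjusted p = 2.21e-05). Fasn (-0.17 ± 0.11) and Acaca (-0.22 ± 0.11) were not called.

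After 24 h of return from 900 to 300 mosmol/kg, Fads1 and Fads2 had higher means than in any of the other 9 groups. Fads1 read 8.47, 8.51 and 8.47 in returned cells, against 6.93, 7.01 and 7.04 at steady 900, a change of 1.49 ± 0.11 (adjusted p = 3.43e-12), or a 2.81-fold higher signal. Fads2 read 9.19, 9.26 and 9.22 in returned cells, against 8.30, 8.30 and 8.24 at steady 900, a change of 0.94 ± 0.08 (adjusted p = 1.38e-10). Both were also above steady 300, by 0.37 ± 0.11 for Fads1 (adjusted p = 0.00466) and 0.49 ± 0.08 for Fads2 (adjusted p = 9.48e-06). Acss2 fell, with 7.34, 7.33 and 7.35 in returned cells, against 8.11, 8.05 and 8.10 at steady 900, a change of -0.75 ± 0.09 (adjusted p = 3.68e-08). Lpin1 fell by 0.65 ± 0.12 (adjusted p = 4.23e-05), while Elovl6 (0.11 ± 0.10) was not called and Scd rose by 0.26 ± 0.10 with a call lost in 5 of 15 alternatives. The mean of Lpin1 in returned cells, 5.77, lay just above the range of the array medians, 5.63 to 5.76. In all, 3 fatty acid genes were called higher and 2 lower on return, near the 19.3% and 18.5% of all genes.

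Of the sterol enzymes, 4 were called higher and 2 lower on return (19.3% and 18.5% of all genes), with a median change of 0.13. Across the alternative analyses, 4 to 8 enzymes were called higher on return, the 8 with array weights. Hsd17b7 read 8.01, 8.22 and 8.08 in returned cells, against 7.42, 7.43 and 7.27 at steady 900, a change of 0.73 ± 0.08 (adjusted p = 3.62e-08). Ebp (0.60 ± 0.11), Acat2 (0.53 ± 0.08) and Fdps (0.37 ± 0.10) also rose. Tm7sf2 read 9.07, 9.02 and 8.99 in returned cells, against 9.86, 9.77 and 9.83 at steady 900, a change of -0.79 ± 0.08 (adjusted p = 1.05e-08), and Sqle fell by 0.37 ± 0.09. Insig1 (-0.35 ± 0.10) fell too, and the call of Insig2 (-0.28 ± 0.10) was lost in 3 of 15 alternatives. Returned cells did not equal cells that had stayed at 300 mosmol/kg. Against steady 300, 10 enzymes were called higher and 1 lower (20.4% and 22.2% of all genes), with a median of 0.26, and Tm7sf2 was still 1.71 ± 0.08 higher (adjusted p = 2.98e-16). Elovl6 was likewise 1.71 ± 0.10 higher in returned cells than at steady 300 (adjusted p = 1.46e-14). The leukocyte markers averaged 5.90 in returned cells, 6.76 at steady 900 and 8.52 at steady 300, and their part in these differences was not tested.

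Challenged cells were also set against the steady culture of the medium they were moved into. At 48 h at 600 mosmol/kg against steady 600, 2 sterol enzymes were called higher and 3 lower (9.47% and 12.5% of all genes), with 0 to 4 higher across the alternative analyses, the 0 without replicate 1 of steady 600 or without replicate 1 or 2 of the 48 h group. Tm7sf2 (-0.57 ± 0.08), Sqle (-0.49 ± 0.09) and Fdft1 (-0.29 ± 0.09) were lower, as were 5 fatty acid genes with 1 higher. Elovl6 read 6.54, 6.72 and 6.48 at 48 h, against 7.87, 8.01 and 7.77 at steady 600, a change of -1.30 ± 0.10 (adjusted p = 2.3e-11). Elovl6 was thus high in cells grown at 600 mosmol/kg but not in cells moved there for 48 h. At 24 h at 900 mosmol/kg against steady 900, 4 enzymes were called higher and 4 lower (9.47% and 8.83% of all genes), with Tm7sf2 at -0.65 ± 0.08. Across the alternative analyses 3 to 10 enzymes were lower there, the 10 with array weights. Of the fatty acid genes, 0 were higher and 3 lower, led by Fads2 (-0.75 ± 0.08) and Fads1 (-0.64 ± 0.11).

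The transport genes went in opposite directions. Abca1, which exports cholesterol to apolipoprotein, read 7.94, 7.99 and 8.04 at steady 300, 7.04, 7.13 and 7.16 at steady 600, and 6.96, 6.86 and 6.94 at steady 900. Its change at steady 900 against steady 300 was -1.07 ± 0.09 (adjusted p = 3.88e-11), and after the step to 600 mosmol/kg its change was 0.17 ± 0.09 at 3 h, 0.03 ± 0.09 at 12 h, -0.41 ± 0.09 at 24 h and -0.92 ± 0.09 at 48 h, with calls at 24 h (adjusted p = 0.000973) and 48 h (adjusted p = 4.49e-09). The leukocyte markers were also lower at 24 and 48 h: their mean was 8.52 at steady 300, 8.32 at 3 h, 8.56 at 12 h, 7.40 at 24 h and 7.18 at 48 h, with 11 of 12 above the array median at steady 300 and 10 of 12 at 48 h. Over the 10 group means, which share the 30 arrays, Pearson's r between Abca1 and these markers was 0.93 and Spearman's rho 0.93. The likeness was not particular to leukocytes. With the fibroblast markers r was 0.82 and rho 0.90, with the intercalated cell markers 0.82 and 0.76, and with the principal cell markers -0.78 and -0.67. The part of these cell types in the change of Abca1 was not tested.

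Abcg1, which exports cholesterol to lipoprotein particles, read 8.70, 8.69 and 8.71 at steady 300, 9.59, 9.68 and 9.74 at steady 600, and 10.07, 10.04 and 9.98 at steady 900. It was 1.33 ± 0.08 higher at steady 900 than at steady 300 (adjusted p = 4.32e-14) and rose at 12 h of both steps, by 0.49 ± 0.08 (adjusted p = 2.38e-05) at 600 mosmol/kg and by 0.46 ± 0.08 (adjusted p = 4.61e-05) at 900 mosmol/kg. On return to 300 mosmol/kg it read 9.39, 9.23 and 9.29, against 10.07, 10.04 and 9.98 at steady 900, a change of -0.73 ± 0.08 (adjusted p = 3.8e-08). Its r over the 10 group means was 0.88 with the principal cell markers and -0.76 with the leukocyte markers. It was also 0.88 with the loop and proximal tubule markers and -0.94 with the intercalated cell markers. The part of these cell types was not tested. Stard4, a cytosolic sterol carrier, fell with the enzymes at 12 h of both steps, with 6.87, 7.01 and 6.85 at 12 h at 600 mosmol/kg, against 7.54, 7.28 and 7.30 at steady 300, a change of -0.46 ± 0.09 (adjusted p = 0.000252). At 12 h at 900 mosmol/kg it read 6.51, 6.69 and 6.57, against 7.28 on each array at steady 600, a change of -0.69 ± 0.09 (adjusted p = 6.08e-07).

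**Figure D5:**
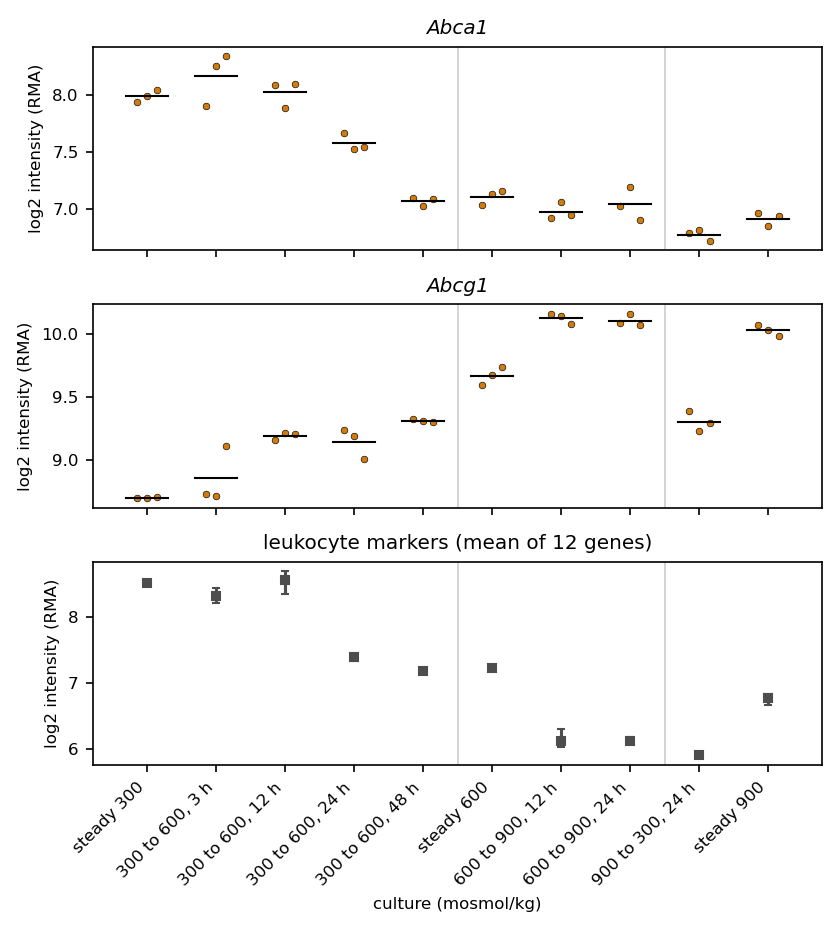
Log2 intensity of Abca1 and Abcg1 on each array (points, with the mean as a line) and the mean of 12 leukocyte marker genes (squares, with the range over 3 arrays) by group. Abca1 is high in the groups where the leukocyte markers are high, and Abcg1 is lowest at steady 300.

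Lists of related genes outside the set were read for comparison. Of 19 further sterol genes measured, 1 was called higher and 11 lower at 3 h of the 300 to 600 step (12.1% and 29.5% of all genes), and 3 higher and 5 lower at 12 h (11.9% and 22.6%). At 12 h of the 600 to 900 step, 2 were higher and 6 lower (12.5% and 25.3% of all genes), and at steady 900 against steady 300, 8 were higher and 6 lower (20.2% and 22.3%). Ch25h, which makes an oxysterol, averaged 9.41 at steady 300, 8.04 at steady 600 and 7.22 at steady 900 and fell by 2.19 ± 0.12 at 900 (adjusted p = 9.12e-16). Vldlr, a lipoprotein receptor, fell by 1.67 ± 0.09 in the same comparison (adjusted p = 4.13e-16), and Gramd1a, an endoplasmic reticulum sterol carrier, by 1.31 ± 0.09. At 12 h of the 600 to 900 step, the sterol hydroxylase Cyp27a1 (-0.96 ± 0.11), the cholesterol esterifying enzyme Soat1 (-0.80 ± 0.07) and the SREBP-cutting protease Mbtps1 (-0.72 ± 0.08) fell. Mbtps1 also fell at 12 h of the 300 to 600 step (-0.60 ± 0.08). Mylip, a ligase that marks lipoprotein receptors for degradation, ran the other way: at 12 h it rose by 0.59 ± 0.08 in the 300 to 600 step and 0.65 ± 0.08 in the 600 to 900 step, and on return it fell by 0.76 ± 0.08.

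Of 23 further fatty acid and lipid genes, 2 were called higher and 9 lower at 12 h of the 300 to 600 step (11.9% and 22.6% of all genes), and 3 higher and 11 lower at 12 h of the 600 to 900 step (12.5% and 25.3%). At steady 900 against steady 300, 7 were higher and 4 lower (20.2% and 22.3% of all genes). Me1, the malic enzyme that supplies NADPH to lipid synthesis, rose at 12 h of both steps, by 1.14 ± 0.13 at 600 mosmol/kg and 1.17 ± 0.13 at 900 mosmol/kg, and fell by 1.45 ± 0.13 on return. Scd2, a further stearoyl-CoA desaturase, fell by 0.97 ± 0.08 and 1.08 ± 0.08 at the same times. At steady 900 against steady 300, the lipogenic regulators Thrsp (2.23 ± 0.12) and Mid1ip1 (1.33 ± 0.09) rose with Me1 (1.64 ± 0.13). Of 10 fatty acid oxidation genes, 5 were higher and 0 lower at steady 900 against steady 300 (20.2% and 22.3% of all genes), led by the coactivator Ppargc1a (2.36 ± 0.14), the pyruvate dehydrogenase kinase Pdk4 (2.30 ± 0.10) and the acyl-CoA dehydrogenase Acadm (1.07 ± 0.14). At 12 h, 0 were higher and 5 lower after the 300 to 600 step (11.9% and 22.6% of all genes), and 3 higher and 7 lower after the 600 to 900 step (12.5% and 25.3%), with Acadl at -0.77 ± 0.10 and -0.97 ± 0.10. At 24 h against 12 h, 7 of these 10 genes were higher after the 300 to 600 step (17.5% of all genes) and 9 after the 600 to 900 step (21.0% of all genes), and 0 were lower in either.

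Over the 10 group means, each gene was set against the mean profile of the other sterol enzymes, as a description over points that share the 30 arrays. Fdft1 (r = 0.96, rho = 0.99), Cyp51 (r = 0.96, rho = 0.95), Msmo1 (r = 0.95, rho = 0.96) and Acat2 (r = 0.90, rho = 0.87) were closest among the enzymes, and Insig1 (r = 0.90, rho = 0.96) was closest outside them. Mvd (r = -0.41), Fdps (r = 0.37) and Hsd17b7 (r = 0.48) were the least alike of the enzymes. Of the fatty acid genes, Fads2 (r = 0.69, rho = 0.61) and Acss2 (r = 0.59, rho = 0.83) lay nearest to the sterol profile by r. Fasn (r = -0.56, rho = -0.72) lay farthest. By rho, Acss2, Elovl6 (r = 0.58, rho = 0.73) and Elovl5 (r = 0.46, rho = 0.68) lay nearer than Fads2. The lowest of the 10 groups was 12 h of the 600 to 900 step for 9 of 17 enzymes and 12 h of the 300 to 600 step for 6. The same count was not made over all genes. Of the brightest tercile, 41.2% and 32.7% were called lower at these times against the steps' controls.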

How the data were processed

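Total RNA of 30 samples of inner medullary collecting duct cells, cultured from rats, was measured on 1 array each, in 10 groups of 3 taken from the sample titles. The authors deposited log2 intensities per probe set, made with RMA per the submitters' processing notes, and these were used as given. RMA usually draws the arrays processed together to one distribution, which hides a shift of most genes at once; the sources used here do not say whether all 30 were processed together. The number of arrays limits the precision. A gene was read from its brightest probe set with exactly 1 gene symbol, which gave 14506 genes. One linear model with a mean per group was fitted over all 30 arrays with limma 3.58.1 in R 4.3.3 (lmFit and eBayes), and p-values were adjusted by Benjamini-Hochberg over all genes, with a threshold of 0.05. The fit was checked on simulated data with independent noise and changes in few genes, which does not cover shifts of many genes at once or outlying arrays. Values of every array were given mainly for genes called, without overlap between arrays, with the largest changes in each branch. Other genes of the set were also named, some of them not called or overlapping. The members, the gene lists and the rule were chosen with earlier results of these data known. Alternatives were quantile normalization, median centring, cyclic loess, a filter on dim genes below percentile 30, averaging of a gene's probe sets, weights per array, a trended robust fit, the replicate number as a block, a fit on the compared arrays alone, and leaving out each array. Promoter sequences are RefSeq's on GRCr8.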

Additional observations from a re-analysis of the deposited data

Results flagged for a closer look

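For 5 genes the change 12 h after the 600 to 900 mosmol/kg step differed from the change 12 h after the 300 to 600 mosmol/kg step in limma's test of the difference itself, with Benjamini-Hochberg adjustment over all genes. The differences (600 to 900 step minus 300 to 600 step, log2 ± SE) were -0.68 ± 0.12 for Tm7sf2 (adjusted p = 0.000146), -0.34 ± 0.09 for Sc5d (adjusted p = 0.0111), 0.59 ± 0.10 for Dhcr7 (adjusted p = 8.45e-05), -0.72 ± 0.11 for Fads2 (adjusted p = 3.46e-05) and -0.45 ± 0.14 for Elovl6 (adjusted p = 0.0325). The call of Elovl6 was lost in 9 of 21 alternative analyses, and that of Sc5d in 3, while those of Tm7sf2, Dhcr7 and Fads2 were lost in 0. At 24 h the same test passed for 6 genes. The differences were 0.62 ± 0.19 for Pmvk (adjusted p = 0.0278), 0.42 ± 0.12 for Fdft1 (adjusted p = 0.0236), 0.52 ± 0.10 for Dhcr7 (adjusted p = 0.000469), -0.88 ± 0.16 for Fasn (adjusted p = 0.000189), -0.44 ± 0.10 for Acly (adjusted p = 0.00183) and 0.81 ± 0.12 for Acss2 (adjusted p = 1.76e-05). The calls of Pmvk and Fdft1 were each lost in 5 of 21 alternatives. Dhcr7 was the only gene of the 34 whose change differed between the steps at both times. Cells grown at 600 mosmol/kg and cells grown at 300 mosmol/kg also differ in their starting levels, so the step and the starting culture cannot be told apart.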

How the results depend on the processing

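Of 4581 alternative values for 301 called results of single genes, 4313 kept direction and call, 268 kept direction and lost the call, and 0 turned direction; 235 results kept their call throughout. Leaving out an array lost 187 calls, where fewer arrays enter the fit, and a fit on the compared arrays alone 24, cyclic loess 20, quantile normalization 13, median centring 13 and array weights 3; the cause of the other losses was not tested. Median changes of the 17 sterol enzymes moved as follows. Quantile normalization gave -0.13 at 3 h and -0.39 at 12 h of the 300 to 600 step, -0.56 at 12 h of the 600 to 900 step, -0.28 for 12 h against 3 h, and 0.38 and 0.52 for 24 h against 12 h of the 300 to 600 and 600 to 900 steps. Cyclic loess gave 0.0602 for steady 900 against steady 300, 0.17 for steady 900 against steady 600, -0.0925 at 3 h, -0.52 at 12 h and 0.0664 at 24 h of the 600 to 900 step, 0.10 on return, -0.32 for 12 h against 3 h, and 0.36 and 0.52 for 24 h against 12 h. Median centring gave -0.59 at 12 h and 0.0465 at 24 h of the 600 to 900 step, 0.16 on return, 0.30 for returned cells against steady 300, 0.0010 for 48 h against steady 600, and 0.45 and 0.56 for 24 h against 12 h. Array weights gave -0.23 for 12 h against 3 h.

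Counts of genes of the set past the threshold moved under array weights to 24 for steady 900 against steady 600, 22 at 48 h, 5 for 48 h against 24 h, and 12 and 14 for the difference between the steps at 12 h and 24 h. That difference counted 3 genes at 12 h under median centring, and 3 at 12 h and 13 at 24 h on the compared arrays alone, where 12 h against 3 h counted 10. Leaving out 1 array gave 11 to 15 genes for steady 600 against steady 300 and 4 to 9 for the 12 h difference. It gave sterol medians of -0.0896 to 0.0118 for steady 600 against steady 300, 0.0894 to 0.13 for steady 900 against steady 600, -0.10 to -0.0354 at 48 h, -0.69 to -0.60 at 12 h of the 600 to 900 step, 0.10 to 0.15 on return, -0.0760 to 0.0131 for 48 h against steady 600, 0.21 to 0.28 for returned cells against steady 300, -0.22 to -0.17 for 12 h against 3 h, 0.40 to 0.44 and 0.50 to 0.59 for 24 h against 12 h, and -0.0298 to 0.0180 for 48 h against 24 h. Deviations of same-numbered arrays from their group means correlated between -0.0988 and 0.24, so the numbers were not taken as pairs. With the replicate number as a block, 8 calls were lost and the sterol medians that moved were -0.0487 at 24 h of the 600 to 900 step, 0.10 on return, -0.20 for that 24 h group against steady 900, and 0.22 for returned cells against steady 300. The alternatives for comparisons between times and with steady 600, 900 or 300 that are not a step's own control were chosen after seeing the data. The 3 arrays of each group limit the precision of every value.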

Other observations

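The probe set that carries the symbols of both Srebf1, the SREBP gene of fatty acid synthesis, and Pemt, a phosphatidylethanolamine methyltransferase, averaged between 6.35 and 6.69 over the 10 groups. It was lowest at 12 h of the 300 to 600 mosmol/kg step, with 6.35 ± 0.09 (SD, n = 3), against 6.49 ± 0.09 at steady 300, and highest at steady 900, with 6.69 ± 0.05. Its signal cannot be assigned to one of the 2 genes.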
